A study of Homo sapiens with 8 samples.

Results

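The Notch receptors, ligands, nuclear partners and targets were examined in SQ20B cells, an established line from a human head and neck squamous cell carcinoma. The 10 genes were chosen by name, from what is known of the pathway, out of 14528 named genes. Earlier results of these data were known when they were chosen. They are the receptors NOTCH1, NOTCH2 and NOTCH3, the ligands JAG1, JAG2 and DLL1, the nuclear factors RBPJ and MAML2, and the targets HES1 and HEY1. At least 1 listed transcript was found for 9 of them, and NOTCH2 was not analysed here. Polyadenylated RNA of the unmodified line was sequenced from 4 normoxic samples and from 4 samples kept for 16 h in 0.5% O2, both grown in glucose-rich medium with serum. The values are FPKM, in which fragment numbers are scaled to transcript length and to library size, so that levels of different genes can be compared. Each condition has 1 value that covers its 4 samples, which the submitters call biological replicates. Because single replicates were not analysed here, every difference below is one between 2 pooled values, with no replicate check, spread or test. In bulk RNA, fewer expressing cells and less RNA per cell cannot be told apart.

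Notch receptors are transmembrane proteins that are activated by ligands of the Jagged and Delta-like families on a neighbouring cell. Ligand binding exposes the receptor to cleavage by an ADAM protease and then by the gamma-secretase complex, and the freed intracellular domain moves to the nucleus. There it joins the DNA-binding protein RBPJ and a Mastermind-like coactivator such as MAML2 to switch on target genes, of which the repressors of the HES and HEY families are the best known. In stratified squamous epithelium the pathway is known for driving basal cells out of the cycle and into differentiation.

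The columns followed their labels in the check genes. Of 8 genes known to respond to hypoxia, 7 had a listed transcript, and LDHA was not analysed here. All 7 were higher in hypoxia, from 2.02-fold for VEGFA to 47.7-fold for NDRG1 with 0.1 FPKM added. Of 9 squamous epithelial markers, 7 were listed, led by KRT5 at 398 FPKM in normoxia and 442 FPKM in hypoxia, and KRT14 and PKP1 were not analysed here. Their summed level was 629 FPKM in normoxia and 708 in hypoxia, most of it from KRT5. The markers did not move together: 4 of the 7 were higher in hypoxia and 3 lower. The lower ones were SFN, DSG3 and KRT6A, the last at 5.1 FPKM in normoxia and 3.26 FPKM in hypoxia, 1.55-fold lower. Fibroblast markers summed to 0.175 and 0.21 FPKM and leukocyte markers to 0.141 and 0.383 FPKM over 2 listed genes each. Of 6 endothelial markers, CDH5 alone was listed, with 4.78 FPKM in normoxia and 2.83 FPKM in hypoxia.

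The promoters of 3 members are shown as examples, picked for letters that the pathway's own factor or the hypoxia-inducible factors are known to read. Such letters are common, and other members carry some of them too. The sequences are RefSeq promoter windows in GRCh38.p14, 250 bases upstream of the annotated start, 5′ to 3′ on the strand of the gene. Capitals mark TGGGAA, the core of the RBPJ site, and ACGTG and GCGTG, the cores of the hypoxia response element, on either strand. HES1 is at chr3:194135898-194136147 on the plus strand, JAG1 at chr20:10674000-10674249 on the minus strand, and the RBPJ window shown at chr4:26319496-26319745 on the plus strand.

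HES1: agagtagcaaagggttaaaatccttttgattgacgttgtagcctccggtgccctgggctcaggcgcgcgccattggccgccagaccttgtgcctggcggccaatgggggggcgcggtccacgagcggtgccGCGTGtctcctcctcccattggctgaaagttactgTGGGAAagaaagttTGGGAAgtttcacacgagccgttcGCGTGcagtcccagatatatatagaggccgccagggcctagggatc

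JAG1: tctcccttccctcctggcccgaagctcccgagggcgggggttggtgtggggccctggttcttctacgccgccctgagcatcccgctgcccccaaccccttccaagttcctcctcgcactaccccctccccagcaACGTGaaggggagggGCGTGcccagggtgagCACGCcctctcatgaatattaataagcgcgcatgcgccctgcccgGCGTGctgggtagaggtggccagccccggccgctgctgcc

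RBPJ: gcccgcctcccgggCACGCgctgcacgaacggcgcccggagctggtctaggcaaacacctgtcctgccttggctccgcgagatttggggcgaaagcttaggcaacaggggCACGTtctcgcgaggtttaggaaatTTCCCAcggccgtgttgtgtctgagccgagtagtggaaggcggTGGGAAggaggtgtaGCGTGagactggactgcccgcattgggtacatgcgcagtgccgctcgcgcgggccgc

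The HES1 window held TGGGAA at 2 places on the strand of the gene, starting 84 and 70 bases before the start of transcription, and GCGTG at 119 and 46 bases. The RBPJ window shown held TGGGAA at 115 bases before the start on the opposite strand and at 72 bases on the strand of the gene. It also held ACGTG once and GCGTG at 2 places. The JAG1 window held ACGTG at 116 bases and GCGTG at 3 places, and no TGGGAA. No match overlapped another in these windows. RefSeq gives 12 windows for 8 of the members, 5 of them for RBPJ, and TGGGAA was found in 2 windows, ACGTG in 2 and GCGTG in 7. The windows of NOTCH1, NOTCH3 and JAG2 also held GCGTG. The windows of MAML2 and NOTCH2 held none of these letters. Most RBPJ windows held none either: numbered along the chromosome, windows 1, 3 and 5 had no match. The RBPJ window shown was picked for its matches and is the only one of the 5 with TGGGAA or ACGTG. Among all 35116 RefSeq windows of the same length, 20.8% held TGGGAA, 18.5% held ACGTG and 32.2% held GCGTG. For TGGGAA and ACGTG, 2 of the 12 member windows each is near these shares. For GCGTG, 7 of 12 is above its share, which was not tested. A match describes the letters in the window and does not show binding. DLL1 and HEY1 have no window here.

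Changes are given as log2 of the hypoxic over the normoxic FPKM with 0.1 FPKM added to each, after adding up the listed transcripts of a gene. The added 0.1 makes the change of low genes smaller. Genes with a mean of at least 0.5 FPKM over the conditions were compared, and 8 of the members passed this limit. A change of at least 1.5-fold, 0.585 on the log2 scale, was counted.

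Among the members past the limit, HEY1 had the largest difference and was higher in hypoxia, RBPJ and MAML2 were 1.45-fold higher, the ligands and HES1 differed by less, and NOTCH1 was lower. Of the 8 members past the limit, 7 were higher in hypoxia and 1 was lower, while 43.6% of all genes past the limit were higher. The median log2 change of these 8 members was 0.24, and that of all 12106 genes past the limit was -0.07. HEY1 was the 1 member at least 1.5-fold higher and NOTCH1 the 1 member at least 1.5-fold lower. The background shares among all genes were 9.95% higher and 11.2% lower by this measure, so that 1 of 8 in each direction lay near the background. The scale of the columns bears on these counts. The FPKM of all listed transcripts summed to 536005 in normoxia and 458431 in hypoxia, and scaling both to the same sum moved every change up by up to 0.23 on the log2 scale and the median of all genes to 0.15. On that scale 3 members were at least 1.5-fold higher (HEY1, RBPJ and MAML2) and none was lower, against 18.6% and 4.99% of all genes. The direction of each of the 9 listed members was the same on both scales. The share of all genes past the limit that were higher was 63.7% at equal sums, so the background for the direction count depends on the scale.

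**Figure D1:**
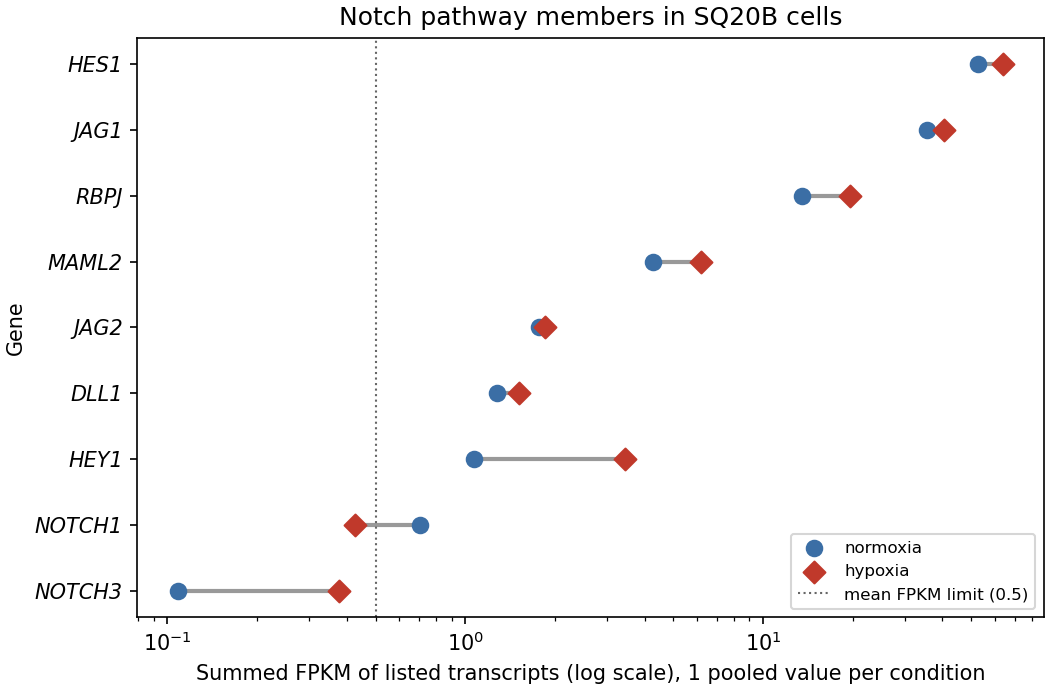
Summed FPKM of the 9 listed members (x axis, log scale), with 1 pooled value in normoxia (circles) and 1 in hypoxia (diamonds), ordered by the normoxic level; the dotted line marks 0.5 FPKM. HES1 and JAG1 lie above 35 FPKM in both conditions, and the listed receptors NOTCH1 and NOTCH3 lie below 1 FPKM. The longest lines are those of HEY1 (1.07 to 3.43 FPKM) and NOTCH3 (0.109 to 0.376 FPKM).

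NOTCH1 and NOTCH3 were the least abundant of the listed members. NOTCH2 has no level here, so the level of the receptors as a whole is not known. NOTCH1, a receptor known as a tumour suppressor in squamous carcinoma, lies on the minus strand of chromosome 9 (139388896 to 139440238 in hg19) and was listed with 1 transcript, NM_017617. Its level was 0.704 FPKM in normoxia and 0.426 FPKM in hypoxia. The log2 change was -0.61, which is 1.53-fold lower. This level was above that of 21.5% of all named genes in normoxia and 14.2% in hypoxia. The mean of 0.565 FPKM is just inside the limit, and the change was -0.26 with 1 FPKM added in place of 0.1 and -0.43 with the columns at equal sums. Among the 4439 genes with a mean of 0.5 to 5 FPKM, 8.4% had a lower log2 change than NOTCH1.

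NOTCH3, a receptor best known from vascular smooth muscle, lies on the minus strand of chromosome 19 (15270444 to 15311792 in hg19), with the transcript NM_000435. It was listed at 0.109 FPKM in normoxia and 0.376 FPKM in hypoxia. Its log2 change was 1.19 with 0.1 FPKM added and 0.31 with 1 FPKM added, and its mean of 0.242 FPKM lay under the limit, so it was not counted. In the 2422 genes below 0.5 FPKM, 21.6% were at least 1.5-fold higher in hypoxia and 3.67% had a larger log2 change than NOTCH3. The levels of NOTCH1 and NOTCH3 together were 0.812 FPKM in normoxia and 0.802 FPKM in hypoxia. In normoxia NOTCH1 was the higher of the pair by a wide margin, and in hypoxia their levels were close. This contrast rests on values under 1 FPKM and on a gene under the limit, with NOTCH3 at 0.109 FPKM in normoxia. The fourth receptor, NOTCH4, known mainly from endothelium, was listed at 0.136 and 0.104 FPKM.

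Among the member ligands JAG1, JAG2 and DLL1, JAG1 carried nearly all of the measured level. JAG1, a Jagged ligand, lies on the minus strand of chromosome 20 (10618332 to 10654694 in hg19) with 1 listed transcript, NM_000214. Its level was 35.5 FPKM in normoxia and 40.6 FPKM in hypoxia. The log2 change was 0.19, which is 1.14-fold higher. JAG1 made up 92.1% of the summed level of JAG1, JAG2 and DLL1 in normoxia and 92.3% in hypoxia. The other ligands described below are not in this sum, and of them DLK2 and DNER were listed above JAG2 and DLL1. Its level was above that of 82.5% of all named genes in normoxia and 86% in hypoxia.

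JAG2, the other Jagged ligand, lies on chromosome 14 (105607318 to 105635161 in hg19) and was listed at 1.77 FPKM in normoxia and 1.86 FPKM in hypoxia through the transcript NM_002226. Its log2 change of 0.07 was the smallest of the members, and it lay in the middle of the genes with a mean of 0.5 to 5 FPKM, of which 51.8% had a larger log2 change. JAG1 was 20 times as abundant as JAG2 in normoxia and 21.8 times in hypoxia. DLL1, a Delta-like ligand, lies on chromosome 6 (170591294 to 170599697 in hg19) and was listed at 1.28 FPKM in normoxia and 1.51 FPKM in hypoxia through NM_005618, a log2 change of 0.22. In the GRCh37 annotation 370 exon bases of DLL1 are shared with FAM120B on the opposite strand. Long noncoding RNA genes share 469 exon bases with JAG2 on the same strand, and 549 with MAML2 and 306 with JAG1 on the opposite strand. These counts cover all annotated exons of a gene, so the shared bases need not lie in the listed transcripts. The use of strand in the authors' quantification is not given in the sources used here. None of the ligands differed by 1.5-fold, on either scale.

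RBPJ and MAML2, the DNA-binding factor and a coactivator of the same nuclear complex, had near-equal changes. RBPJ lies on the plus strand of chromosome 4 (26321332 to 26436752 in hg19), and its 4 listed transcripts summed to 13.5 FPKM in normoxia and 19.6 FPKM in hypoxia, a log2 change of 0.53. MAML2 lies on the minus strand of chromosome 11 (95709757 to 96076344 in hg19) and was listed with 1 transcript, NM_032427, at 4.26 FPKM in normoxia and 6.21 FPKM in hypoxia, a log2 change of 0.53. Both genes were 1.45-fold higher, just under the 1.5-fold mark. RBPJ was 3.16 times as abundant as MAML2 in normoxia and 3.15 times in hypoxia. Of the 5896 genes with a mean of 5 to 50 FPKM, 8.45% had a larger log2 change than RBPJ and 8.53% a larger one than MAML2. Both passed 1.5-fold with the columns at equal sums, with log2 changes of 0.76 each.

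The RBPJ transcripts differed among themselves. NM_203284, the most abundant, was listed at 8.09 FPKM in normoxia and 12.6 FPKM in hypoxia, a log2 change of 0.64. NM_015874 was level, at 4.13 FPKM in normoxia and 4.07 FPKM in hypoxia, and its share of the RBPJ level was 30.6% in normoxia and 20.8% in hypoxia. NM_203283 had the largest change, 2.35-fold, from 1.05 FPKM to 2.59 FPKM, and its share was 7.77% in normoxia and 13.2% in hypoxia. NM_005349 stayed below 0.5 FPKM, at 0.215 FPKM in normoxia and 0.287 FPKM in hypoxia. By difference in FPKM, NM_203284 accounted for 74.5% of the RBPJ increase and NM_203283 for 25.3%. The transcripts of a gene share most of their sequence, so these values depend on how Cufflinks divided the reads, and the annotation holds 4 RBPJ processed pseudogenes that could take or give reads.

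**Figure D2:**
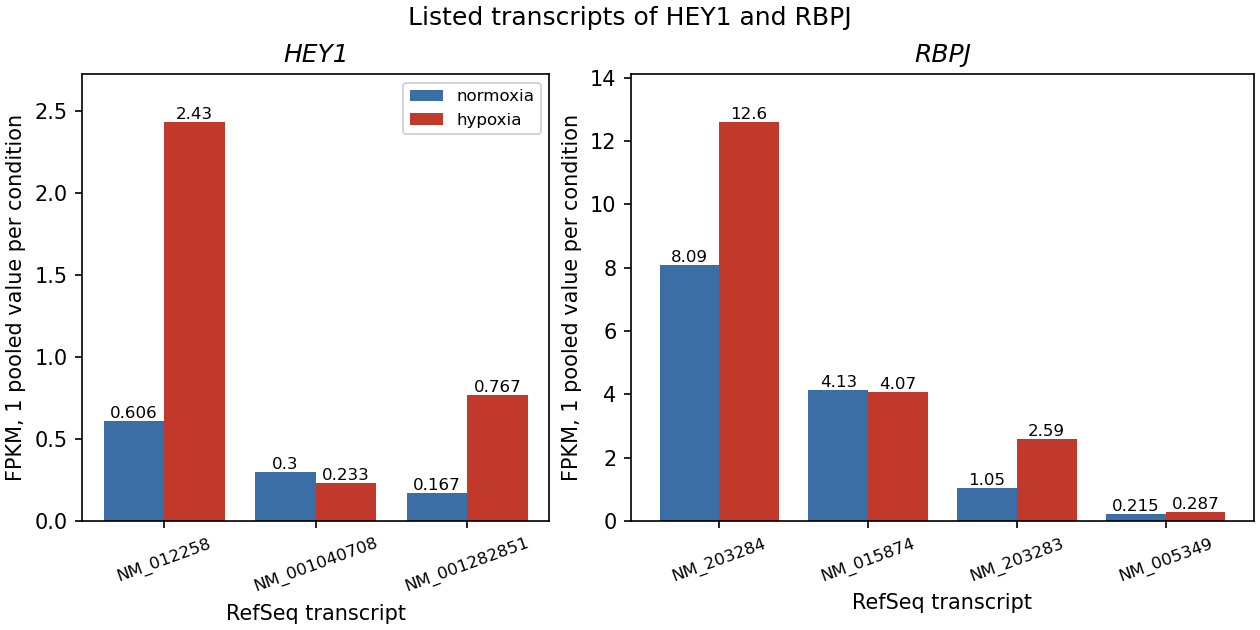
FPKM (y axis, linear from 0, a separate scale for each gene) of each listed RefSeq transcript (x axis) of HEY1 (left) and RBPJ (right), with 1 pooled value in normoxia (blue) and 1 in hypoxia (red). NM_012258 of HEY1 and NM_203284 of RBPJ have the tallest bars in both conditions, while NM_015874 of RBPJ has nearly level bars at 4.13 and 4.07 FPKM.

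HES1, a basic helix-loop-helix repressor and the best-known Notch target, was the most abundant member. It lies on the plus strand of chromosome 3 (193853931 to 193856401 in hg19), and its only listed transcript, NM_005524, had 52.7 FPKM in normoxia and 63.7 FPKM in hypoxia. The log2 change was 0.27, or 1.21-fold, under the 1.5-fold mark on both scales. Its level exceeded that of 87.8% of named genes in normoxia and 91.2% in hypoxia. Genes as abundant as HES1 tended to be lower in hypoxia: the median log2 change of the 1771 genes averaging 50 FPKM or more was -0.27. Of these genes, 90.6% had a lower log2 change than HES1.

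HEY1, a related repressor, lies on the minus strand of chromosome 8 (80676245 to 80680098 in hg19) and had the largest change of the members past the limit. NOTCH3, under the limit, had a larger log2 change without the added 0.1 FPKM, 1.79 against 1.68 for HEY1. The 3 listed transcripts of HEY1 summed to 1.07 FPKM in normoxia and 3.43 FPKM in hypoxia. The log2 change was 1.59, which is 3.01-fold higher. With 1 FPKM added in place of 0.1 the log2 change was 1.10, the lowest value under the alternatives tried. Low genes were more often higher in hypoxia, with 16.3% of the 4439 genes at a mean of 0.5 to 5 FPKM at least 1.5-fold higher, and 69 of these genes (1.55%) had a larger log2 change than HEY1. In normoxia HEY1 was listed below JAG2 and DLL1, and in hypoxia above both. HES1 was 49.2 times as abundant as HEY1 in normoxia and 18.6 times in hypoxia. In FPKM the increase of HES1, 10.9, was larger than that of HEY1, 2.36.

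The HEY1 transcripts differed in direction. NM_012258 was listed at 0.606 FPKM in normoxia and 2.43 FPKM in hypoxia, a log2 change of 1.84, and its share of the HEY1 level was 56.4% in normoxia and 70.8% in hypoxia. NM_001282851 was listed at 0.167 FPKM in normoxia and 0.767 FPKM in hypoxia, a log2 change of 1.70. NM_001040708 was lower in hypoxia, at 0.300 FPKM in normoxia and 0.233 FPKM in hypoxia, and its share was 27.9% in normoxia and 6.79% in hypoxia. The mean levels of the last 2 lay below 0.5 FPKM. Of the 14 listed member transcripts, all coding, 10 had a mean of at least 0.5 FPKM. Of these, 3 were at least 1.5-fold higher: NM_012258 of HEY1 and NM_203283 and NM_203284 of RBPJ. The background share higher among all 18190 transcripts past the limit was 10.5%. RBPJ gave 2 of the 3, and transcripts of 1 gene are not independent. At least 1.5-fold lower was 1, NM_017617 of NOTCH1, and no background share of lower transcripts was computed.

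**Figure D3:**
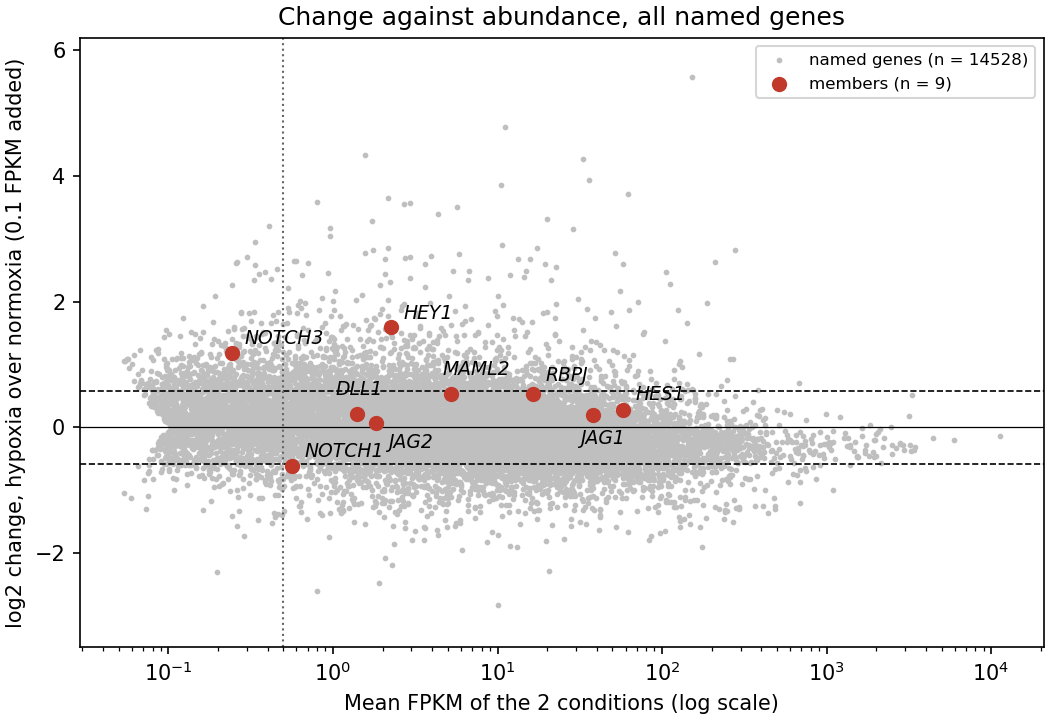
log2 change (y axis, hypoxia over normoxia with 0.1 FPKM added) against mean FPKM (x axis, log scale) for all 14528 named genes (grey) and the 9 listed members (red); dashed lines mark 1.5-fold, the dotted line marks 0.5 FPKM. HEY1 (1.59) and NOTCH3 (1.19) lie near the top of the genes of their abundance, and NOTCH1 (-0.61) lies just past the lower dashed line.

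The rest of the pathway was described with 65 genes in 7 roles, of which 56 were listed and 46 passed the limit on the mean. Of the 46 genes, 31 were higher in hypoxia and 15 lower. Their median log2 change was 0.15, and 43.6% of all genes past the limit were higher. At least 1.5-fold higher were 5 genes (NCSTN, APH1B, NUMB, SIN3A and HES6), or 10.9% against 9.95% of all genes, which is near the background. At least 1.5-fold lower was 1 gene, POGLUT1, against 11.2% of all genes. With the columns at equal sums 36 genes were higher and 10 lower, with 63.7% of all genes higher, and 8 of the 46 genes passed 1.5-fold upward and none downward, against 18.6% and 4.99% of all genes.

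The 9 receptor proteases leaned upward, with 8 higher in hypoxia, 1 lower and a median log2 change of 0.19. They cover FURIN, which matures the receptor, ADAM10 and ADAM17, which cut it outside the membrane, and the 6 listed subunits and subunit paralogs of gamma-secretase. APH1B, a scaffold subunit, was listed at 1.21 FPKM in normoxia and 2.28 FPKM in hypoxia, a log2 change of 0.86. NCSTN (nicastrin), the substrate-binding subunit, was listed at 4.56 FPKM in normoxia and 6.97 FPKM in hypoxia, a log2 change of 0.60. PSEN2 had a log2 change of -0.07 that was 0.15 with the columns at equal sums. APH1A, a scaffold paralog of APH1B, was much more abundant and differed little, at 34.6 FPKM in normoxia and 35.7 FPKM in hypoxia. ADAM10 was the most abundant of the proteases, at 71.9 FPKM in normoxia and 82.3 FPKM in hypoxia.

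The 8 glycosylation and ligand ubiquitination genes past the limit were split, with 4 higher in hypoxia, 4 lower and a median log2 change of -0.12. Among the lower ones were 3 enzymes that add first sugars to the EGF repeats of the receptors in the endoplasmic reticulum, of which 1 passed 1.5-fold. POGLUT1, an O-glucosyltransferase, was listed at 10.6 FPKM in normoxia and 6.52 FPKM in hypoxia, a log2 change of -0.69. POFUT1, the O-fucosyltransferase, was listed at 24.7 FPKM in normoxia and 17.3 FPKM in hypoxia (-0.51), and EOGT, which adds N-acetylglucosamine, at 6.30 and 4.70 FPKM (-0.42). These 3 were put together after their values were seen. All 3 were lower on both scales, and POGLUT1 alone reached 1.5-fold, with a log2 change of -0.47 at equal sums that did not. The Fringe enzymes, which extend O-fucose, were low: LFNG had 1.82 FPKM in normoxia and 1.87 FPKM in hypoxia, RFNG had 0.561 and 0.452 FPKM, and MFNG had 0.203 and 0.205 FPKM. MIB1, the ubiquitin ligase that ligand endocytosis depends on, was listed at 29.0 FPKM in normoxia and 36.6 FPKM in hypoxia, a log2 change of 0.33.

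Among the 8 inhibitors and turnover factors past the limit, 3 were higher and 5 lower, with a median log2 change of -0.11. NUMB, an adaptor that antagonises Notch, was listed at 11.3 FPKM in normoxia and 17.2 FPKM in hypoxia, a log2 change of 0.60. NRARP, an inhibitor that is itself a known Notch target, was listed at 4.52 FPKM in normoxia and 4.12 FPKM in hypoxia, a log2 change of -0.13 that was 0.09 with the columns at equal sums. FBXW7, which marks the intracellular domain for destruction, had a log2 change of -0.09 that was 0.14 at equal sums. The ubiquitin ligases ITCH and NEDD4 had log2 changes of -0.23 and -0.22, and both lay at 0 at equal sums to 2 decimals.

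Of the 6 nuclear coactivators past the limit, 5 were higher, with a median log2 change of 0.16, and none reached 1.5-fold. KAT2B, an acetyltransferase, came nearest at 3.90 FPKM in normoxia and 5.82 FPKM in hypoxia, a log2 change of 0.56. MAML1, the Mastermind-like paralog of MAML2, was listed at 3.61 and 3.96 FPKM (0.13), and MAML3 at 0.186 and 0.233 FPKM. Of the 11 corepressors past the limit, 9 were higher and 2 lower, with a median of 0.22. SIN3A, a scaffold of histone deacetylase complexes, was listed at 7.09 FPKM in normoxia and 11.6 FPKM in hypoxia, a log2 change of 0.70. The 2 lower ones were the deacetylases HDAC1 (-0.24) and HDAC2 (-0.40).

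The other HES and HEY genes were low. HES6, known as an inhibitor of HES1, was listed at 1.19 FPKM in normoxia and 2.46 FPKM in hypoxia, a log2 change of 0.98. HES2 went the other way, at 4.01 FPKM in normoxia and 3.21 FPKM in hypoxia, a log2 change of -0.31. HES4, HES7 and HEY2 were listed below 0.5 FPKM in both conditions, and HES3, HES5, HEYL and HELT were not analysed here. Among the other ligands, the noncanonical DLK2 was level, at 5.33 FPKM in normoxia and 5.38 FPKM in hypoxia, and DNER had 2.96 and 2.26 FPKM. DLL3, which is known to act inside the cell rather than as an activating ligand, was listed at 0.500 FPKM in normoxia and 0.374 FPKM in hypoxia. DLL4 and DLK1 were not analysed here.

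**Figure D4:**
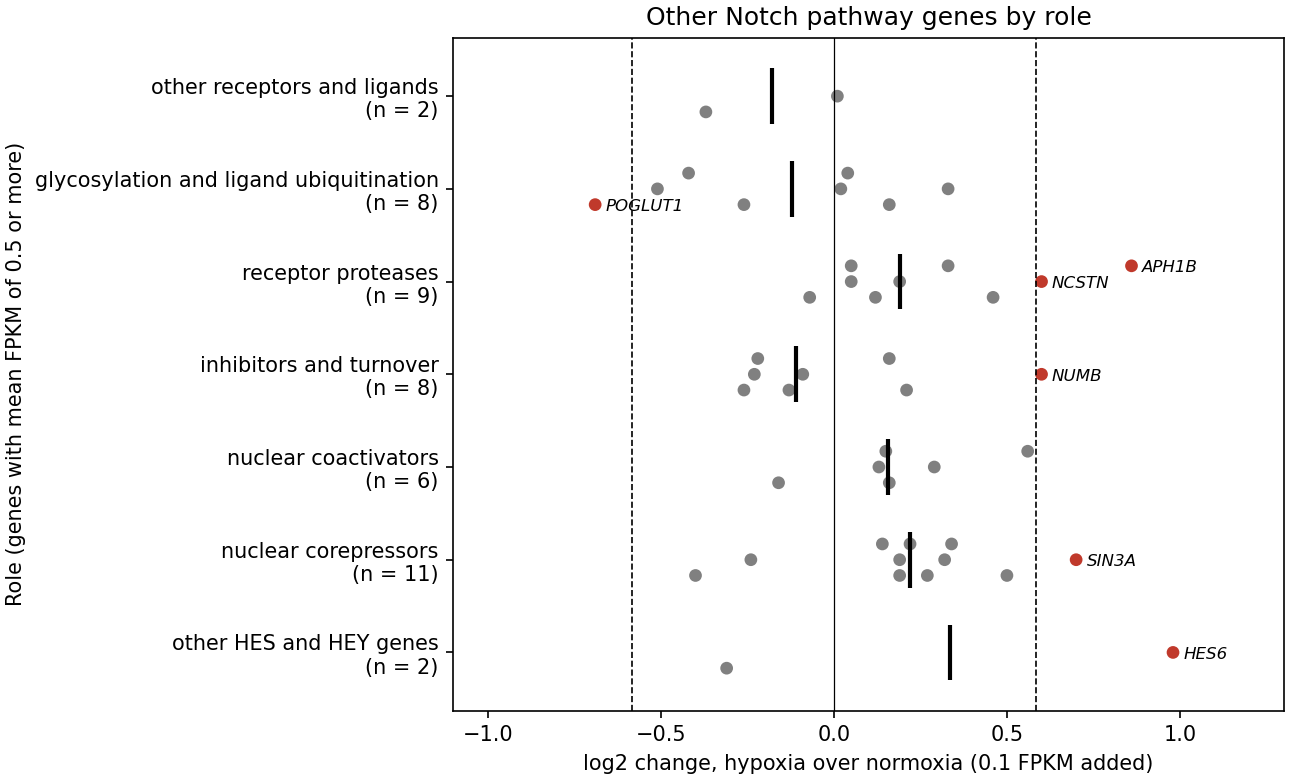
log2 change (x axis, hypoxia over normoxia with 0.1 FPKM added) of the 46 other pathway genes averaging 0.5 FPKM or more, by role (y axis); each point is a gene, red where it is past 1.5-fold (dashed lines), and the black bar is the median of the role. The receptor proteases and the nuclear cofactors lie mostly right of 0, and POGLUT1 is the only gene past the left dashed line.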

How the data were processed

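Polyadenylated RNA of 4 normoxic and 4 hypoxic SQ20B samples was sequenced as stranded libraries. Per the labels and the methods of the study, the authors aligned reads with STAR 2.3.0.1 to RefSeq hg19 and ran the Cufflinks suite 2.1.1 with standard parameters. The FPKM column of each condition was deposited by the authors and covers its 4 replicates. The authors' fold change, test statistic, p-value and q-value columns hold their own comparison and were not used. Read depth per sample was not analysed here, and intervals or floors that need it are left out.

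The table held 24812 entries, and no transcript stayed below 0.0998 FPKM in both conditions, so that summed values leave out weaker isoforms. The lack of an entry does not by itself show a low level. RefSeq identifiers were paired with symbols through the annotation of GRCh38.p14, used for names only (24293 entries, 97.9%). Listed starts plus 1 matched a transcript start in the GRCh37 annotation (GENCODE) for 40.1% of loci, against 4.1% unshifted, so starts are printed with 1 added, counted from 1.

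FPKM values were summed per gene, and changes were log2((hypoxia + 0.1)/(normoxia + 0.1)), counted at 1.5-fold for means of at least 0.5 FPKM. No test could be fitted with 1 value per condition. The arithmetic of the calls, and not their error, was checked on simulated data with known folds and no noise. All members are named, and other pathway genes past 1.5-fold, receptors, ligands and HES and HEY genes. Further pathway genes given as examples were picked after their values were seen. With 2 conditions no genes were ranked by likeness to the members. The members and lists were chosen with earlier results of these data known. Python 3.11.15, numpy 2.4.6, pandas 2.3.3 and matplotlib 3.10.9 were used.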

Additional observations from a re-analysis of the deposited data

How the results depend on the processing

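No paired analysis was possible because each condition has 1 pooled value, and leaving out replicates was not run for the same reason. Without replicates, a value was taken to hold where its direction and its side of 1.5-fold were kept. Under 8 alternatives, 55 of 63 values of single members held, 8 changed their side of 1.5-fold and 0 changed direction. Many of the 63 could not change, so this tally is not a measure of robustness. The limits on the mean leave the change of a gene as it is, and all listed member transcripts are coding. For members with 1 listed transcript, the most abundant transcript is the whole gene. Scaling to equal sums and setting the median change to 0 each gave 3 of 8 members at least 1.5-fold higher and 0 lower. RBPJ and MAML2 crossed the mark and NOTCH1 dropped under it. Of all genes, 18.6% were higher and 4.99% lower at equal sums, and 12.4% and 8.76% with the median at 0. With no filter on low values 2 of 9 members were higher (NOTCH3 joined HEY1), against 11.9% of all genes. With the most abundant transcript alone 2 of 8 were higher (HEY1 and RBPJ), against 10.1% of all genes. NOTCH1 was no longer counted with 1 FPKM added, with a mean limit of 1 FPKM or at 2-fold, each of which left 0 members lower. The shares of all genes lower in these settings were 8.52%, 11.8% and 2.62%. HEY1 was counted as higher in every setting, with log2 changes from 1.10 to 1.84. For the other pathway genes, 5 higher and 1 lower became 2 higher with 1 FPKM added (5.94% of all genes), 8 higher and 0 lower at equal sums (18.6% and 4.99% of all genes), and 0 higher and 0 lower at 2-fold (3.21% and 2.62% of all genes). FPKM levels without read counts limit most what can be said of NOTCH1 and NOTCH3, which lay under 1 FPKM.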

Other observations

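CDH5, which encodes the endothelial adhesion protein VE-cadherin, was listed at 4.78 FPKM in normoxia and 2.83 FPKM in hypoxia, a log2 change of -0.73, in this squamous line. The other 5 endothelial markers (PECAM1, VWF, TEK, CLDN5 and TIE1) were not analysed here. The source of the CDH5 level was not tested.

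The change of a gene was tied to its abundance across the whole table. The median log2 change was 0.21 for the 2422 genes below 0.5 FPKM, 0.09 for the 4439 genes from 0.5 to 5 FPKM, -0.10 for the 5896 genes from 5 to 50 FPKM and -0.27 for the 1771 genes at 50 FPKM or more. The members span all 4 classes, so a change of 0.27 in HES1 and a change of 0.22 in DLL1 stand against different surroundings: 9.37% of genes in the class of HES1 had a larger change, and 39.3% in that of DLL1. What sets this trend was not tested.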
